A study of Mus musculus with 4 samples.

Results

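The genes of the mouse mitochondrial chromosome were taken as the 37 rows of the count table whose GENCODE mouse symbol starts with mt-, out of 54752 rows in all. They comprised 13 protein genes, 2 rRNAs and 22 tRNAs, and the rule used names only, though the set was proposed with earlier results of these data known. The RNA came from hearts at postnatal day 14, with total RNA sequenced from 2 wild-type samples and from 2 that carry the label Carm1 mutant. The labels name no allele, no Cre driver and no strain for the mutant, and they do not give the number of hearts behind a library or say that replicates are separate hearts. The p-values therefore cover the spread among these libraries, which may be technical. The series text calls the hearts neonatal. Carm1 encodes an arginine methyltransferase of histones and coactivators, and the series title concerns its part in the maturation of the heart.

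Library totals ran from 11677604 to 22217442 counts, with mutant replicate 2 the shallowest. The targeted gene Carm1 had 45.9 and 52.3 TMM-normalised CPM (counts divided by the library size, which TMM factors adjust for composition) in wild type against 35.8 and 31.8 in the mutant-labelled libraries and was not called (edgeR FDR 0.114), so it does not by itself check the labels. The female-specific transcript Xist had 12 and 15 counts in wild type against 8116 and 3921, and the Y-linked gene Ddx3y had 575 and 741 against 1 and 0, so genotype and sex cannot be told apart in any comparison below. The cardiomyocyte markers Myh6, Actc1, Tnnt2, Tnni3, Myl2, Ryr2 and Ttn together made up 45215 to 64332 CPM of the library totals and included no marker at 0.

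The mitochondrial chromosome of mammals is a small circle that carries its genes almost without spacers. Both strands are transcribed as long precursors, and the tRNAs that lie between the other genes are cut out, which frees the mRNAs and rRNAs. The mRNAs encode core subunits of respiratory complexes I, III and IV and of ATP synthase, and the rRNAs and tRNAs serve their translation inside the organelle. Heart muscle, which depends on oxidative metabolism, is rich in these transcripts.

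In GENCODE M21, built on GRCm38 like the mm10 build named in the submitters' processing notes, 28 of the genes lay on the plus strand and 9 on the minus strand. The minus-strand genes were mt-Nd6 and 8 tRNAs. Of the 36 junctions between neighbouring genes 9 overlapped, 12 abutted and 15 had a gap, of 32 bases at most. Protein genes on the same strand overlapped in 3 places, of which mt-Atp6 into mt-Co3 shared 1 base. The other 2 stretches are shown because the reads over them belong to both genes, with the shared bases in capitals and 15 flanking bases on each side (GRCm38, plus strand, chrM:7912-7984 and chrM:10152-10188).
mt-Atp8 into mt-Atp6: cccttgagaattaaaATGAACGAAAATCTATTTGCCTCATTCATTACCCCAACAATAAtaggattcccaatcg
mt-Nd4l into mt-Nd4: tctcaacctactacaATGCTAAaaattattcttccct
The first overlap spans 43 bases and the second 7, and each starts with the ATG of the downstream gene. Of the protein genes 9 began with ATG and 4 with another codon. In 10 of them the annotated sequence ended with a complete stop codon, and in 3 (mt-Co3, mt-Nd4 and mt-Cytb) it ended with a lone T, where addition of the poly(A) tail completes the stop.

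Nuclear copies of this chromosome may bear on the values below, because no source used here says how reads that match several places were treated. By BLAST of annotated transcripts, 16 nuclear rows matched a mitochondrial gene over at least 100 bases at 90% identity or more. No row matched either rRNA, mt-Nd1 or mt-Atp8. The tRNAs are all shorter than 100 bases, so copies of them could not be found this way. On chromosome 1, from 24611535 to 24616197 on the minus strand (GRCm38), 7 annotated pseudogenes followed the order from the end of mt-Co1 to within mt-Nd4. They held 95.8% of all counts on nuclear copies. The copies of mt-Co2, mt-Atp6, mt-Co3 and mt-Nd4l were identical to the mitochondrial gene over the whole aligned length of 681, 678, 783 and 294 bases. The copy of mt-Nd4 was identical over 876 bases, from the gene's start. The copy of mt-Nd3 differed at 1 base of 345.

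The first 90 bases of mt-Nd4l and mt-Nd3 and 90 bases of mt-Cytb, from its base 2, are shown with their nuclear copies because they span the range from no difference to several. Capitals mark the bases that differ.
mt-Nd4l: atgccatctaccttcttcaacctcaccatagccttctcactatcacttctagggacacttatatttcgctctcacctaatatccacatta
Gm10222: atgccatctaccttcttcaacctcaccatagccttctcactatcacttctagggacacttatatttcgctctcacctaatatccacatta
mt-Nd3: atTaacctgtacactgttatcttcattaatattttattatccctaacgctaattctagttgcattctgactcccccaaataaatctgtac
Gm28438: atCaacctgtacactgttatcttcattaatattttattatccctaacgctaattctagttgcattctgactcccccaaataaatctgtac
mt-Cytb: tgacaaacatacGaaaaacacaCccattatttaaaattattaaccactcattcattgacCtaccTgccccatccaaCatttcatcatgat
Gm11410: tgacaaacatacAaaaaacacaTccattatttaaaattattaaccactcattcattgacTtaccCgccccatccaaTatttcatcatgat
Counting from 1 at the gene's 5′ end, the difference in mt-Nd3 was T3C (mitochondrial base first), at chromosome M position 9461, which is 3 bases past the end of the glycine tRNA mt-Tg. The mt-Cytb stretch held 5 differences (G14A, C24T, C61T, T66C and C78T), and over 1142 aligned bases the copy of mt-Cytb, on chromosome 4, had 81.

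The mitochondrial chromosome held 33.1% of all counts in wild type 1, 31.7% in wild type 2, 31.0% in mutant 1 and 27.8% in mutant 2. Exact Clopper-Pearson 95% intervals on these shares were at most 0.0257 percentage points to either side. Like all intervals on shares and all floors here, they cover counting error only. Intervals on log2 fold changes come from the edgeR fit and include its estimate of the spread among libraries. The groups did not overlap, at 32.4% ± 1.0 against 29.4% ± 2.3 (SD, n = 2 each), but with 2 libraries a group the exact permutation test (two-sided) has 0.333 as its smallest p, the value reached here. In each library mt-Co1 was the most abundant gene of the whole table, and 7 of the 10 most abundant rows were mitochondrial. The 13 protein genes alone took 32.0%, 30.8%, 30.2% and 26.8% of the counts of wild type 1, wild type 2, mutant 1 and mutant 2, the order used below.

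**Figure D1:**
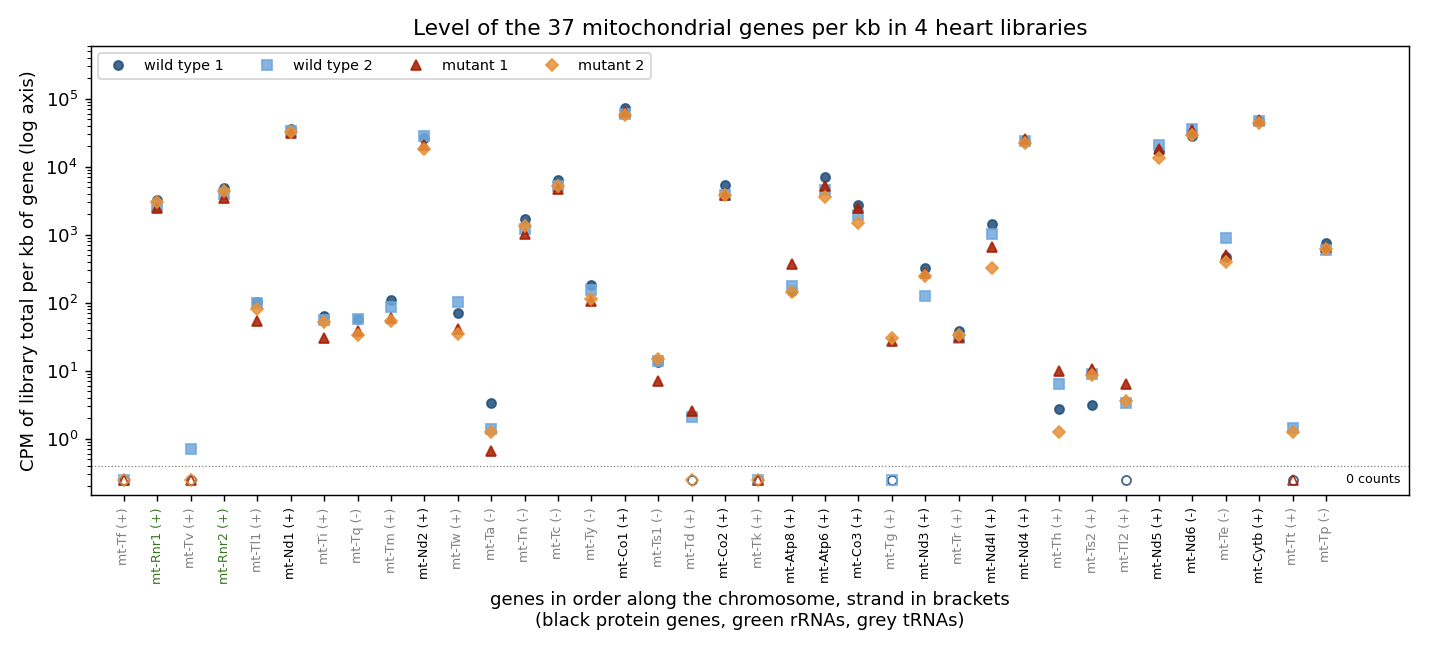
Level of each of the 37 mitochondrial genes, in CPM of the library total per kb of gene on a log axis, in the order of the genes along the chromosome. Each point is a library, open points below the dotted line had 0 counts, and the 6 protein genes between mt-Co1 and mt-Nd4 sit far below the other 7 in all 4 libraries.

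Within the chromosome the levels per kb of gene, in CPM of the library total, spanned several orders of magnitude. mt-Co1, the catalytic subunit of cytochrome c oxidase, came first at 72995, 60303, 64267 and 58077 CPM per kb. mt-Cytb, the mitochondrially encoded subunit of complex III, followed at 47883, 47608, 49620 and 44432. These leading genes kept their order in every library, and the groups overlapped in both.

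Next came mt-Nd1 with a mean of 33613 CPM per kb over the 4 libraries, mt-Nd6 with 32098, mt-Nd4 with 23805, mt-Nd2 with 23304 and mt-Nd5 with 17536, all subunits of complex I. The order of mt-Nd1 and mt-Nd6 was not stable: mt-Nd6 was above mt-Nd1 in wild type 2 and mutant 1 and below it in the other libraries. The same held for mt-Nd4 and mt-Nd2, where mt-Nd2 was above mt-Nd4 in both wild-type libraries and below it in both mutant-labelled ones. mt-Nd6 is the only protein gene of the minus strand. Whether the counting used strand is not given, so its reads and reads from the opposite precursor cannot be told apart.

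The 6 protein genes between mt-Co1 and mt-Nd4 were much lower per kb. They ranged from 210.2 CPM per kb (mt-Atp8) to 5098 (mt-Atp6) with a median of 1531, against a range of 17536 to 63910 and a median of 32098 in the other 7, a ratio of 20.96 between the medians. No gene of the first group reached any gene of the second. mt-Co2 and mt-Co3 had means of 4273 and 2190, and mt-Nd4l and mt-Nd3 of 873 and 242.4. This is the stretch that the chromosome 1 pseudogenes copy, and 4 of the 6 genes had an identical annotated copy and mt-Nd3 a copy with 1 difference. mt-Atp8 had no annotated copy. The space between the copies of mt-Co2 and mt-Atp6 was 233 bases, against 230 between the mitochondrial genes. What part the copies had in these levels was not tested.

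Both rRNAs lay below the 7 abundant protein genes per kb, with means of 2857 CPM per kb for mt-Rnr1 and 4192 for mt-Rnr2. mt-Rnr1, of the small ribosomal subunit, had 67686, 52193, 51881 and 34460 counts, and mt-Rnr2, of the large subunit, had 168112, 130107, 122641 and 81822. Together they took 3.28%, 2.77%, 2.53% and 3.58% of mitochondrial counts, and the groups overlapped (3.02% ± 0.36 against 3.06% ± 0.74, SD, n = 2 each, exact two-sided permutation p = 1). The labels do not say whether rRNA was depleted or poly(A) RNA selected.

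Within each group the rRNAs kept nearly the same ratio to each other. mt-Rnr1 made up 28.7%, 28.6%, 29.7% and 29.6% of rRNA counts, with exact 95% intervals at most 0.263 percentage points to either side. The groups differed by 1.01 percentage points, with SDs of 0.053 and 0.066 (n = 2 each), and did not overlap, at the smallest p the exact permutation test can give (0.333). Neither rRNA was called by itself (edgeR FDR 0.284 for mt-Rnr1 and 0.252 for mt-Rnr2).

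The 22 tRNA rows were sparse. They took 0.203%, 0.181%, 0.159% and 0.196% of mitochondrial counts, and the groups overlapped (exact two-sided permutation p = 0.667). The genes are 59 to 75 bases long, and how reads shared with a neighbour were credited is not given. mt-Tf and mt-Tk had 0 counts in every library, where a count of 0 allows up to 0.135 to 0.257 CPM (3 counts of the library total), and 4 others, mt-Tv, mt-Ta, mt-Td and mt-Tt, had fewer than 10 counts in all.

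Counts on tRNA rows lay almost wholly on rows annotated to the minus strand. Whether the counting used strand is not given, so the strand of the reads is not known. The 8 minus-strand tRNAs held 95.9%, 95.2%, 96.1% and 96.1% of tRNA counts. The 4 tRNAs with most counts were all on that strand, and their sequences are shown with the anticodon in capitals because they carry most of this class, with mt-Tg beside them for the comparison below (GRCm38 chromosome M, tRNA strand, from GENCODE M21 transcripts).
mt-Tc: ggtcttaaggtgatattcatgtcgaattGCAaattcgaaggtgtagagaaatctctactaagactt
mt-Tn: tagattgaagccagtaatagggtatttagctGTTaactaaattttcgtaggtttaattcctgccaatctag
mt-Tp: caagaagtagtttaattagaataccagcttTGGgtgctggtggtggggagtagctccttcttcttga
mt-Te: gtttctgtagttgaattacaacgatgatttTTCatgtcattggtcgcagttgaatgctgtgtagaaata
mt-Tg: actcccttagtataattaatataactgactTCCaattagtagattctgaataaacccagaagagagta
In each of these 5 sequences the anticodon was marked where the stem beside it paired best, with G-T pairs allowed. That 5 of 5 positions can pair is therefore in part set by this choice.

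The cysteine tRNA mt-Tc (5192 to 5257) had 9179, 7104, 6913 and 4049 counts, which was 62.8%, 59.5%, 63.1% and 63.6% of all tRNA counts. The asparagine tRNA mt-Tn (5089 to 5159), its neighbour on the same strand, had 2649, 1824, 1630 and 1129. The proline tRNA mt-Tp (15356 to 15422) had 1119, 830, 988 and 492. In TMM-normalised CPM both mutant-labelled libraries were below both wild-type libraries for each of these tRNAs, but no one of them passed the test (edgeR FDR 0.143, 0.131 and 0.217).

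The glutamate tRNA mt-Te (14071 to 14139) had 704, 1275, 773 and 316 counts. The tyrosine tRNA mt-Ty (5260 to 5326) had 262, 217, 160 and 90. On the plus strand no tRNA exceeded the 166 counts that the leucine tRNA mt-Tl1 and the methionine tRNA mt-Tm each had in wild type 1. The remaining rows with at least 10 counts were those of mt-Tw, mt-Ti, mt-Tq, mt-Tr, mt-Tg, mt-Ts1, mt-Ts2, mt-Th and mt-Tl2. Of these mt-Ts1 had 20, 20, 11 and 12 counts, mt-Ts2 4, 11, 14 and 6, mt-Th 4, 9, 15 and 1, and mt-Tl2 0, 5, 10 and 3.

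Against wild type, the mutant-labelled hearts had fewer counts on 4 mitochondrial genes, mt-Nd4l and the tRNAs mt-Tw, mt-Ty and mt-Tm, and more on the glycine tRNA mt-Tg. These were the 5 called among 29 members that passed the filter on low counts (17.2%), at an FDR of 0.05 in edgeR's quasi-likelihood test over all 15283 genes tested. Over all genes 7.37% were called, 4.58% lower and 2.79% higher. The 8 members that did not pass the filter were all tRNAs, and mt-Tg passed it through the mutant-labelled libraries alone. The set of called members changed with the libraries used. There were 9 calls without wild type replicate 1 (30.0% of members tested, against 14.3% of all genes), and without wild type replicate 2 there were 24 (80.0% against 35.5%). Leaving out mutant replicate 1 gave 3 (10.3% against 2.67%), and leaving out mutant replicate 2 gave 1 (3.33% against 2.39%). The calls over all genes rose and fell with those of the members.

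**Figure D2:**
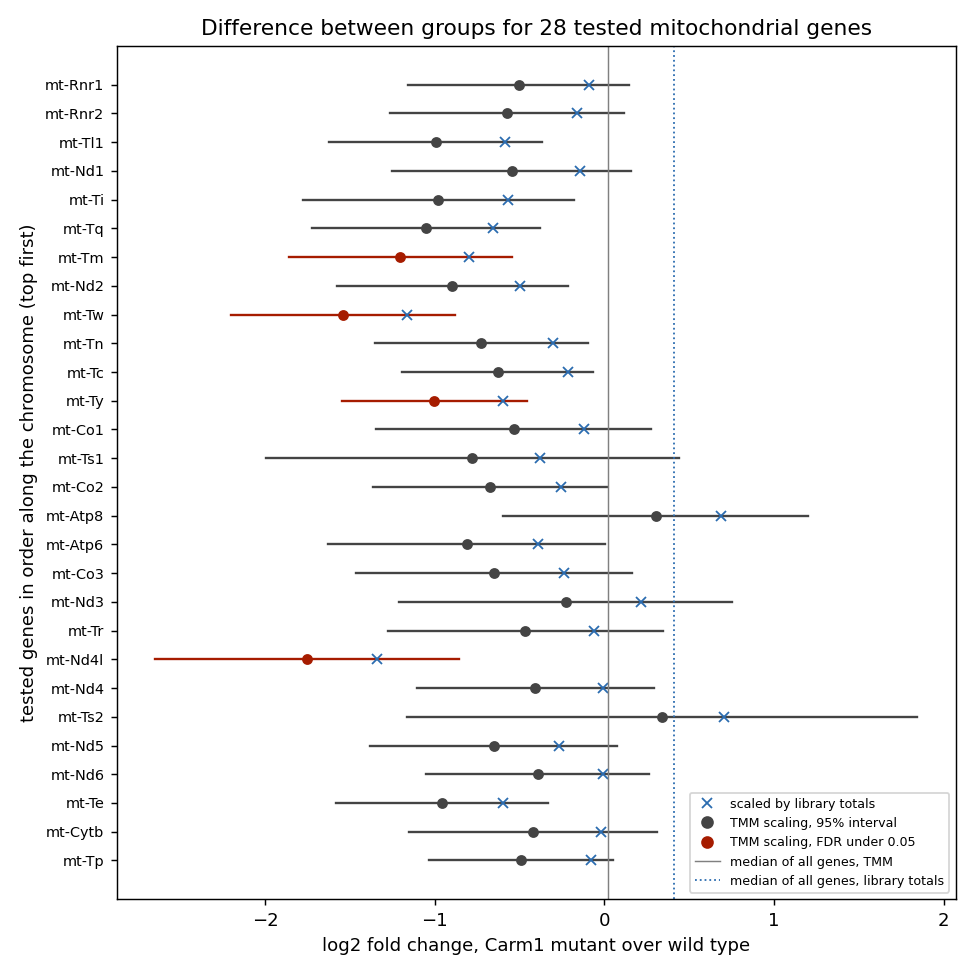
Log2 fold change of 28 tested mitochondrial genes, mutant-labelled over wild type, in chromosome order. Dots with bars give TMM scaling and its 95% interval, crosses the value with library totals, and vertical lines the median of all genes under each scaling; mt-Tg, with no count in wild type, is left out.

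The bulk of the members lay below wild type without passing the test. Of 29 tested members 26 had a negative log2 fold change, and in 24 both mutant-labelled libraries were below both wild-type libraries in TMM-normalised CPM, against 28.7% of all tested genes. In 1 member, mt-Tg, both were above, against 30.3% of all tested genes, and 4 overlapped. The median over the 13 protein genes and 2 rRNAs was −0.55, against 0.02 for all genes. For the 14 tested tRNAs it was −0.87. Library totals alone shifted the median of all genes by 0.39 and that of the 15 genes to −0.14, with 9 of the 29 members lower without overlap, against 12.1% of all tested genes. Relative to the median of all genes the 15 lay 0.57 lower under TMM and 0.55 lower under library totals. A change of scaling shifts all genes nearly alike, so the value under library totals adds no separate support. With library totals alone only mt-Tg was called among the members (3.45%, below the 9.13% of all genes).

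mt-Nd4l encodes a small subunit of complex I and was the only protein gene called. It had 9403, 6455, 4381 and 1122 counts, or 538, 329.7, 174.7 and 82.6 TMM-normalised CPM. Both mutant-labelled libraries were below both wild-type libraries, and the spread within each group was wide. The log2 fold change was −1.75 (SE 0.39, 95% interval −2.65 to −0.85, edgeR FDR 0.0375). Without mutant replicate 2 it was −1.32 and not called (edgeR FDR 0.185). Its downstream partner mt-Nd4, which shares 7 bases with it, had a log2 fold change of −0.41 (edgeR FDR 0.418), so that the ratio of mt-Nd4 to mt-Nd4l per kb was 16.1, 23.2, 38.2 and 68.3 in the 4 libraries.

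Counts on the nuclear copy of mt-Nd4l moved differently from those on the gene. Gm10222, identical to mt-Nd4l over 294 bases, had 1381, 1452, 1840 and 792 counts (log2 fold change −0.22, edgeR FDR 0.521). Reads within those bases cannot be told apart by sequence, so these rows are not separate measurements. Gm10222 was credited with 12.8%, 18.4%, 29.6% and 41.4% of the counts of the pair, with no overlap between groups. The pair together had 10784, 7907, 6221 and 1914 counts. With the counts of nuclear copies added to their mitochondrial genes, the log2 fold change of mt-Nd4l was −1.39 (edgeR FDR 0.0448).

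**Figure D3:**
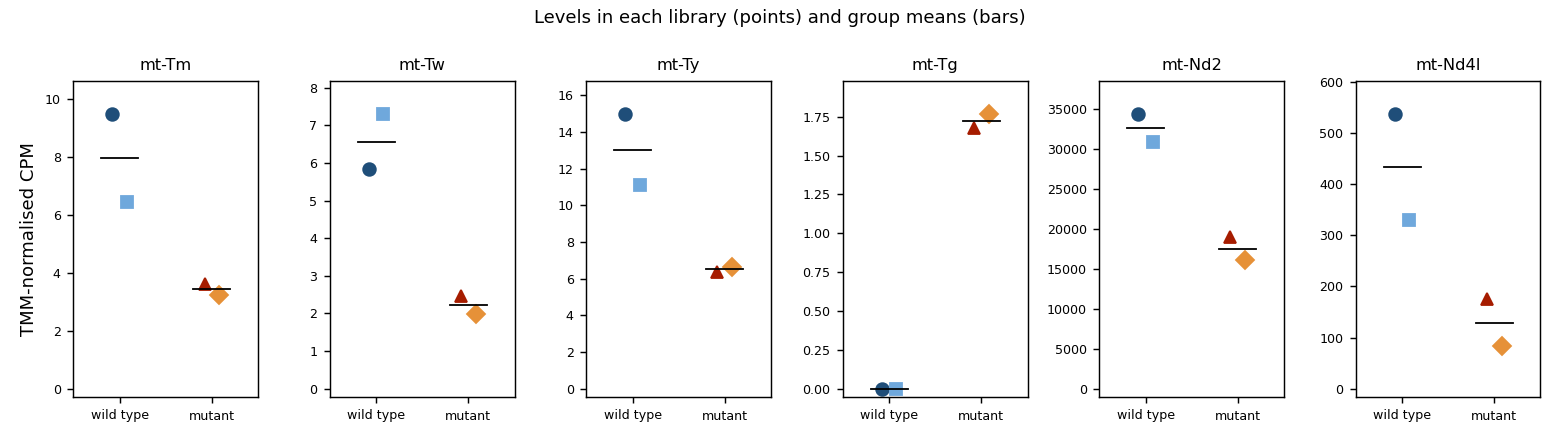
TMM-normalised CPM in each library (points, 2 per group) with group means (bars) for the 5 called members and mt-Nd2, the gene between the called tRNAs mt-Tm and mt-Tw. mt-Tg had 0 counts in both wild-type libraries, and in the other panels both mutant-labelled points lie below both wild-type points.

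Of the called tRNAs, mt-Tm and mt-Tw flank mt-Nd2. mt-Ty lies farther on, on the minus strand, past mt-Ta, which was not tested, and the uncalled mt-Tn and mt-Tc. mt-Tg lies elsewhere, between mt-Co3 and mt-Nd3. The tryptophan tRNA mt-Tw (4950 to 5016), which overlaps the end of mt-Nd2 by 2 bases, had 102, 143, 62 and 27 counts, or 5.83, 7.30, 2.47 and 1.99 TMM-normalised CPM (log2 fold change −1.54, SE 0.29, edgeR FDR 0.0245). The methionine tRNA mt-Tm (3845 to 3913), which abuts the start of mt-Nd2, had 166, 126, 91 and 44 counts, or 9.49, 6.44, 3.63 and 3.24 CPM (−1.20, SE 0.28, edgeR FDR 0.0447). mt-Ty had 14.98, 11.1, 6.38 and 6.63 CPM (−1.002, SE 0.24, edgeR FDR 0.0437). In each of the 3, the groups were apart. The calls of mt-Tm and mt-Ty were lost without either mutant library (edgeR FDR from 0.135 to 0.268), and that of mt-Tw without mutant replicate 2 (edgeR FDR 0.0914). With upper-quartile factors mt-Tm and mt-Ty also missed the threshold (edgeR FDR 0.0531 and 0.0543), as did mt-Tm in limma-voom (adjusted p 0.0529).

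mt-Nd2 itself, a core subunit of complex I, had 600040, 603836, 475040 and 218226 counts, or 34317, 30840, 18945 and 16068 TMM-normalised CPM. Both mutant-labelled libraries were below both wild-type ones, yet it was not called (log2 fold change −0.90, SE 0.30, edgeR FDR 0.101). It passed without wild type replicate 1 or without wild type replicate 2, but in neither fit that left out a mutant library, and the DESeq2 Wald test called it (adjusted p 0.00116). Of the tRNAs on either side of mt-Nd1, mt-Tl1 had 166, 155, 91 and 71 counts (log2 fold change −0.99, edgeR FDR 0.0653), mt-Ti 96, 80, 47 and 42 (−0.98, edgeR FDR 0.118) and mt-Tq 88, 84, 60 and 28 (−1.05, edgeR FDR 0.0672). In all 3 the mutant-labelled libraries were below the wild-type ones in TMM-normalised CPM, and none was called. In mt-Te, farther on, it was −0.96 (edgeR FDR 0.0699), in mt-Ts1 −0.78, and in mt-Tr −0.47.

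The share of each gene in the mitochondrial total does not depend on scaling between libraries. Of the 29 tested members 7 had a lower share in both mutant-labelled libraries than in both wild-type ones, 4 a higher share, and 18 overlapped. Per mitochondrial count 7.71% of all tested genes were lower and 63.1% higher without overlap. The members make up that total themselves, so they cannot all fall or all rise, and the other genes are not bound in this way. The lower ones were mt-Tl1, mt-Tq, mt-Tm, mt-Nd2, mt-Tw, mt-Ty and mt-Nd4l. mt-Nd2 took 8.34%, 9.16%, 6.89% and 6.72% of mitochondrial counts. The higher ones were mt-Tg, mt-Nd4, mt-Ts2 and mt-Cytb, with mt-Cytb at 16.5%, 17.2%, 18.3% and 18.3% and mt-Nd4 at 9.78%, 10.6%, 11.3% and 10.9%. Scaled to the mitochondrial total, edgeR called mt-Tw and mt-Nd4l lower and mt-Tg and mt-Atp8 (log2 fold change 0.79) higher. That was 13.8% of members tested, against 25.9% of all genes called in that fit. This scaling centres the members by construction and shifts the other genes, so these shares cannot be compared.

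The protein gene counts were then divided by respiratory complex. Counts on the nuclear copies were left out, so these shares may depend on how reads that match several places were credited. Complex I, with 7 genes, took 44.3%, 49.6%, 45.6% and 45.1%. Complex IV, with 3 genes, took 37.1%, 31.6%, 34.4% and 34.9%. For both, the mutant-labelled libraries fell between the wild-type ones (exact two-sided permutation p = 1 each). The ATP synthase genes mt-Atp8 and mt-Atp6 took 1.502%, 1.02%, 1.2005% and 0.928%, again with overlap (exact permutation p = 0.667). Complex III, which is mt-Cytb, did not overlap between groups, at 17.4% ± 0.40 against 18.9% ± 0.13 (SD, n = 2 each, exact permutation p = 0.333, the smallest possible). mt-Nd6 took 4.56%, 6.12%, 5.90% and 5.75% of protein gene counts, where wild type 1 was lowest and wild type 2 highest (exact two-sided permutation p = 1).

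The abundant genes each had a negative, uncalled log2 fold change under TMM. mt-Co1 had 140086, 98872, 87979 and 77152 TMM-normalised CPM (−0.53, SE 0.35, edgeR FDR 0.360). mt-Cytb had 68043, 57798, 50297 and 43706 CPM (−0.42, SE 0.32, edgeR FDR 0.423). mt-Nd1 had 43493, 34478, 26496 and 26884 CPM (−0.55, SE 0.30, edgeR FDR 0.281). In all of them wild type 1 was highest and the groups were apart. mt-Nd5 had 38892, 40911, 29421 and 21389 CPM (−0.65, edgeR FDR 0.223), mt-Nd4 40235, 35508, 30941 and 26177, and mt-Nd6 18125, 19987, 15779 and 13243 (−0.39, edgeR FDR 0.407). For mt-Nd5 and mt-Nd6 wild type 2 was the highest library.

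The other oxidase genes and mt-Atp6 were also negative and uncalled. mt-Co2, the subunit that receives electrons from cytochrome c, had 4609, 2817, 2375 and 2275 CPM (−0.68, edgeR FDR 0.188). mt-Atp6, of the proton channel of ATP synthase, had 5928, 3301, 3143 and 2112 (−0.81, edgeR FDR 0.182). mt-Co3 had 2687, 1649, 1751 and 1009, where the groups overlapped (−0.65, edgeR FDR 0.269). In each of these 3, wild type 1 stood well above the other libraries.

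In mt-Atp8 and mt-Nd3 the direction under TMM depended on single libraries. mt-Atp8, a small subunit of ATP synthase, had 661, 739, 1690 and 344 counts, or 37.8, 37.7, 67.4 and 25.3 CPM. The mutant-labelled libraries lay on either side of the wild-type ones, and the log2 fold change was 0.30 (SE 0.39, edgeR FDR 0.653), or −0.58 without mutant replicate 1. mt-Nd3, of complex I, had 2422, 925, 2096 and 1017 counts, or 138.5, 47.2, 83.6 and 74.9 CPM. Here the wild-type libraries lay on either side, with a log2 fold change of −0.23 (SE 0.42, edgeR FDR 0.765). It was 0.73, and called higher, without wild type replicate 1 (edgeR FDR 0.0127), and −0.84, and called lower, without wild type replicate 2 (edgeR FDR 0.00141).

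mt-Tg (9391 to 9458) had 0, 0, 42 and 24 counts. The counts of mutant 1 and mutant 2 were 1.68 and 1.77 TMM-normalised CPM. Both wild-type libraries were at 0, both mutant-labelled ones were near each other, and the groups were apart. With 3 counts taken as the floor of both wild-type libraries together, it was at least 21.1-fold higher in the mutant-labelled group (edgeR FDR 0.0127). mt-Tg passed the filter through the mutant-labelled libraries alone, and it was called in every alternative fit that kept all 4 libraries. With both wild-type libraries at 0, neither another fit of the same counts nor leaving a library out could reverse the direction. None of these fits adds separate support. Scaled to the mitochondrial total the bound was 29.9-fold. The bound is one of counts credited to the row: the reads were not analysed here, so a different level of mt-Tg and a different crediting of reads cannot be told apart. Its neighbour on the plus strand upstream is mt-Co3, and downstream mt-Nd3, whose base 3 carries the only difference from the chromosome 1 copy. In the copy, 69 bases separate the pseudogenes of mt-Co3 and mt-Nd3, and no row of the table is annotated there. The next tRNA, mt-Tr, had 56, 43, 48 and 27 counts (log2 fold change −0.47, edgeR FDR 0.425).

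**Figure D4:**
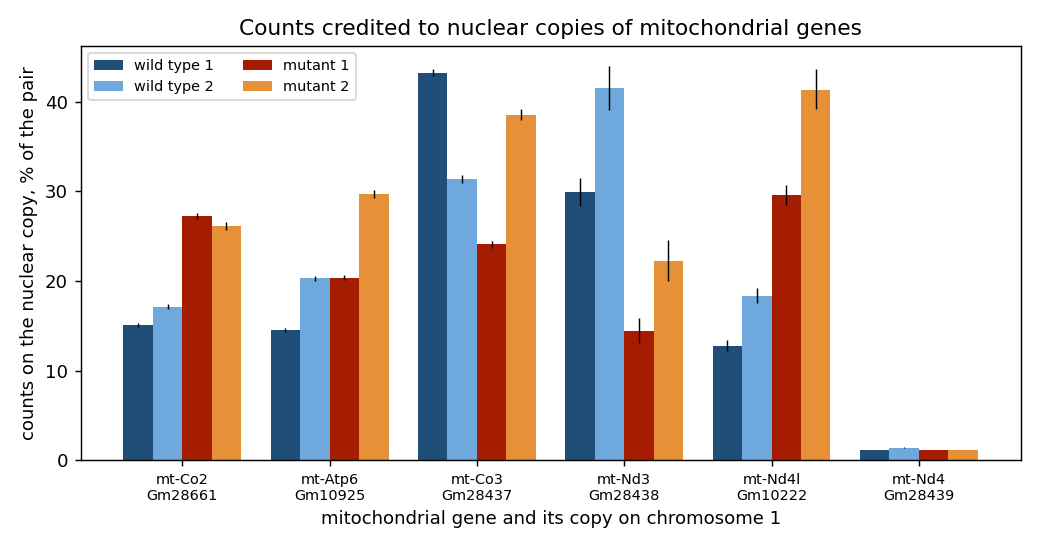
Percent of the counts of each pair of mitochondrial gene and chromosome 1 copy that lay on the copy, by library, with exact 95% intervals for counting error. Libraries of a group often differ by far more than the intervals, as in mt-Co3 (24.1% to 43.3%), and mt-Nd4, copied in part, stays between 1.13% and 1.42%.

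The chromosome 1 pseudogenes drew a varying part of the counts of each pair. For mt-Co2 and Gm28661 the copy held 15.1%, 17.2%, 27.3% and 26.2%, higher in both mutant-labelled libraries. For mt-Nd3 and Gm28438 it held 29.9%, 41.6%, 14.5% and 22.2%, lower in both, and Gm28438, named after its values were seen, was itself called lower (log2 fold change −1.39, edgeR FDR 0.0399). For mt-Co3 and Gm28437 it held 43.3%, 31.4%, 24.1% and 38.6%, and for mt-Atp6 and Gm10925 14.5%, 20.3%, 20.4% and 29.7%. No common direction ran through the pairs. Copies that differed more held a small part. That of mt-Nd5 on chromosome 13, at 95.2% identity, held 0.0144% to 0.0203%, and that of mt-Cytb at most 0.000168%. Some close copies also held little. Gm28439, identical to mt-Nd4 over 876 bases, held 1.13% to 1.42%, and Gm29216, with 1 difference from mt-Co1, 0.75% to 3.42%. What set these parts was not tested.

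Nuclear copies held 0.646%, 0.356%, 0.588% and 0.663% of library counts, and the groups overlapped (exact two-sided permutation p = 0.667). The copy with most counts was Gm29216, which matches the last 483 bases of mt-Co1 with 1 difference. It had 56773, 14625, 58049 and 37093 counts, so wild type 2 stood apart from wild type 1 by more than the groups differed (edgeR FDR 0.738). Gm28437 had 35836, 14795, 13938 and 8608 counts (edgeR FDR 0.110), and Gm10925 17647, 16469, 20182 and 12128 (edgeR FDR 0.762).

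Nuclear genes that keep, transcribe and translate the chromosome were in part lower. Of 91 tested genes of the list, 16 fell (17.6%, against 4.58% of all genes) and 75 did not pass. None passed as higher in edgeR, DESeq2 or limma-voom, with 2 higher at an unadjusted p under 0.05 in edgeR. The median log2 fold change was −0.50. Leaving out wild type replicate 1 gave 27 lower calls in the list (29.7%, against 8.76% of all genes), and leaving out wild type replicate 2 gave 50 lower (54.9% against 19.5%) and 1 higher. Without either mutant library nearly all lower calls in the list were lost, too few to set their share against that of all genes. The median of the list was then −0.52 without mutant replicate 1 and −0.50 without mutant replicate 2. With library totals 4 were lower (4.40% against 1.35%) and 1 higher.

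By role, 2 of 9 genes of transcription and its termination fell, 1 of 10 of replication, 1 of 7 of RNA processing, 4 of 14 of RNA stability and turnover, 2 of 15 of RNA modification, 2 of 23 of tRNA charging and 4 of 11 translation factors. Taco1, an activator of translation of mt-Co1 mRNA, fell from 30.8 ± 4.8 to 7.32 ± 0.37 TMM-normalised CPM (SD, n = 2 each, log2 fold change −2.08, SE 0.21, edgeR FDR 0.00529). Lrpprc, which binds and stabilises mitochondrial mRNAs, fell from 142.5 ± 5.4 to 52.8 ± 1.0 CPM (−1.43, SE 0.19, edgeR FDR 0.0103), and Mto1, a modifier of the wobble base of mitochondrial tRNAs, from 16.6 ± 1.6 to 6.29 ± 0.16 CPM (−1.40, SE 0.21, edgeR FDR 0.0141).

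Polrmt, the mitochondrial RNA polymerase, had 42.2 ± 1.2 against 33.6 ± 0.8 CPM and was not called (log2 fold change −0.33, SE 0.18, edgeR FDR 0.268). With library totals its value was 0.06. Tfam, which packages the chromosome and starts transcription, had 25.8 ± 8.8 against 14.2 ± 1.3 CPM (−0.86, SE 0.26, edgeR FDR 0.0819). Tfb2m, which opens the promoter for the polymerase, and Twnk, the replicative helicase, both chosen after their values were seen, fell by 1.05 and 1.06 on the log2 scale (edgeR FDR 0.0244 and 0.0269). Without mutant replicate 1 the call of Lrpprc was lost (edgeR FDR 0.0768), as it was without mutant replicate 2 (0.0671), and that of Mto1 was lost without mutant replicate 1 (0.0527).

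Some markers of cell types also differed between the groups. The 7 cardiomyocyte markers summed to 62258, 64332, 45215 and 49785 CPM of the library totals, with no marker called. Relative to library totals Myh6, Actc1, Tnnt2 and Tnni3 were lower in both mutant-labelled libraries, while Myl2, Ttn and Ryr2 overlapped between groups. The 6 fibroblast markers summed to 1811 and 2397 against 4510 and 5061, with 1 called higher, and the 5 endothelial markers to 584 and 986 against 1498 and 1342. No marker of these 3 lists was at 0. Of the 4 atrial markers 1 was called higher and 2 lower. The 4 smooth muscle and pericyte markers summed to 495, 794, 962 and 979, and the 5 erythroid markers to 572, 476, 608 and 1003, with none called. The skeletal muscle genes Myh1 and Myh4 were at 0 in every library. Mitochondrial counts per cardiomyocyte marker count were 5.32, 4.93, 6.86 and 5.59 (exact two-sided permutation p = 0.333, the smallest possible). Their part in the mitochondrial differences was not tested, and in whole heart fewer cardiomyocytes and less RNA per cardiomyocyte cannot be told apart.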

How the data were processed

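RNA sequencing counts from 4 mouse heart libraries were used as the authors deposited them, as raw whole-number counts per gene. FastQC, HISAT2 and mm10 are named in the submitters' processing notes; the counting program, strand setting and handling of multiply matching reads were not found in any source used here. Of 54752 rows 54723 had a name in GENCODE M21. Columns were matched to samples by title. The members and lists were chosen with earlier results of these data known.

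Genes were filtered with filterByExpr, given TMM factors and tested by glmQLFit and glmQLFTest of edgeR 4.0.16 under R 4.3.3, with genotype as the only term, Benjamini-Hochberg adjustment over all genes and a threshold of 0.05. The standard error is the log2 fold change divided by the square root of F. Steps were tested on simulated data. Shares were compared by exact permutation over libraries. Levels per kb divide CPM of library totals by annotated gene length. Nuclear copies were found with BLAST+ 2.17.0 on transcripts in place of a genome. Alternatives used DESeq2 1.42.0, limma 3.58.1, other scalings and filters, a replicate block, added copies and each library left out. Scaling to the mitochondrial total, a length correction (loess) and a crossed block were added after seeing the data. The rule named all members, Carm1, Polrmt, Tfam, Lrpprc, up to 3 called genes of the nuclear list in each direction and the 3 copies with most counts. Over members the chi-square statistic divided by its degrees of freedom was 2972 for the wild-type pair and 850 for the mutant-labelled pair, so no library repeated another within counting error.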

Additional observations from a re-analysis of the deposited data

How the results depend on the processing

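The count of called members was 5 in the reported fit. It was 1 with library totals, 3 with upper-quartile factors, 12 with no filter, 8 with the DESeq2 Wald test, 11 with the length trend removed and 11 with the crossed replicate block, and from 1 to 24 with a library left out. With library totals 3.45% of members tested were called, below the 9.13% of all genes. The share of members was 10.3% against 6.94% with upper-quartile factors, 34.3% against 9.94% with no filter and 27.6% against 11.2% with DESeq2. It was 37.9% against 16.6% with the length trend removed, and 37.9% against 27.3% with the crossed block. Over all genes 1126 were called in the reported fit. There were 2630 calls with no filter, 1709 with DESeq2, 3978 scaled to the mitochondrial total, 2540 with the length trend removed and 4176 with the crossed block, and from 377 to 5679 with a library left out. The nuclear list had 16 calls, and 5 with library totals, 10 with upper-quartile factors, 34 with no filter, 27 with DESeq2, 5 scaled to the mitochondrial total, 36 with the length trend removed, 43 with the crossed block, and from 1 to 51 with a library left out. With no filter more genes are tested, and without a library an arm holds 1 sample assumed to vary like the other arm; for other settings the cause was not tested.

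The replicate number shares no stated litter or day, and deviations of same-numbered libraries correlated at −0.30 over genes, which is why the crossed block was run. The replicate block as numbered gave 1222 calls over all genes, 6 among members (mt-Te was added) and 12 in the list, and changed no member's direction.

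The median of the 15 protein and rRNA genes was −0.14 with library totals and 0.00 (0.00423) scaled to the mitochondrial total, against −0.55, and lay between −0.80 and −0.31 with a library left out. The group difference in the rRNA share, 0.033 percentage points, ran from −0.49 to 0.56 with a library left out. In the tRNA share it was −0.0147 and ran from −0.033 to 0.0037, and in the mt-Nd6 share 0.48 and ran from −0.29 to 1.26. The mitochondrial share stayed lower in the mutant-labelled group in all 7 alternatives run for it. As the groups did not overlap, the alternatives with a library left out could not have reversed it. The others left out the rRNAs, added the nuclear copies or used protein-coding counts alone.

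Scaled to the mitochondrial total, uncalled log2 fold changes turned positive in mt-Rnr1 (0.065), mt-Nd1 (0.0042), mt-Co1 (0.019), mt-Nd3 (0.37), mt-Tr (0.081), mt-Nd4 (0.13), mt-Nd6 (0.12), mt-Cytb (0.12), mt-Tp (0.066) and Polrmt (0.20). With library totals mt-Nd3 (0.22) and Polrmt (0.060) turned. With a library left out the value ran from −0.58 to 0.83 in mt-Atp8, from −0.84 to 0.73 in mt-Nd3 and from −0.15 to 1.10 in mt-Ts2. No other named gene reversed. Mutant replicate 2, the shallowest library, held 6 to 71 counts on each tested tRNA of the plus strand, and whether depth limited these tests was not tested.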
